A study of Mus musculus with 10 samples.

Results

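Mitochondria keep their own small circular genome (mtDNA), and every protein that copies, packages, transcribes or processes it is encoded in the nucleus and imported. The 40 genes described here cover that machinery. They are Tfam itself, the transcription apparatus, the termination factor family, the replication and repair enzymes, the enzymes that supply nucleotides to mitochondria, the factors that cut, polyadenylate, stabilise or degrade mitochondrial RNA, and the nuclear regulators that drive such genes. Members were chosen by name and function, with earlier results of these data known, and all 40 were found among the 22553 Ensembl genes of the count table.

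Regulatory T cells (Treg), CD4 T cells that express Foxp3 and hold immune responses in check, were the cells studied. YFP+ cells were sorted from the lymph nodes and spleens of C57BL/6 females that were littermates, and poly(A) RNA was sequenced. Control mice were Tfamfl/+Foxp3Yfp-Cre/+ and knockout (KO) mice Tfamfl/flFoxp3Yfp-Cre/+, so both groups carry the Foxp3-driven Cre and at least 1 floxed Tfam allele, and control cells can lose 1 copy. There were 3 control and 3 KO libraries, each from cells of 2 to 3 pooled mice, and no label states the age of the mice. Because the mice are heterozygous for an X-linked Cre allele, the sort takes the Treg that express the reporter.

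TFAM coats mtDNA into nucleoids and bends its promoters so that the mitochondrial RNA polymerase can start. Long transcripts from both strands are then cut into individual RNAs, largely at the tRNAs between the genes, and polyadenylated. The nuclear factors NRF1 and GABP and the PGC-1 family of coactivators are known to activate many genes of the machinery, Tfam among them.

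The libraries held between 19087757 and 27490253 gene counts, and a count of 3 equals 0.109 to 0.157 CPM, counts relative to library size, across them. All 40 members passed the filter on low counts, with 62 counts (Mterf1a in KO replicate 2) as the lowest in any library. Levels below are CPM scaled with TMM factors, which correct library size for composition, and differences are log2 fold changes of KO over control. Treg markers summed to 2264 to 2555 CPM in control and 2292 to 2491 CPM in KO libraries, and Foxp3 lay between 688 and 873 CPM. Markers of macrophages and monocytes, 10 of 10 detected, summed to 820 and 1183 CPM in control and KO replicate 2 and to 372 to 483 CPM in the other 4 libraries. All 10 were fitted above 0 with a median log2 fold change of 0.34, their summed mean in KO was 1.29 times that in control, and 0 were called (adjusted p of 0.635 or more). With the replicate number as a block, edgeR called 4 of the 10 higher, Cd68, Vcam1, Adgre1 and Slc40a1, where 1.97% of all tested genes were called higher. Of the 6 Treg markers the block called Ctla4 lower (adjusted p = 0.0432 in edgeR, 0.0858 in DESeq2). The part of macrophage RNA in the results below was not tested. Summed markers of other cells were lower and overlapped between the groups, at 11.9 to 20.3 CPM for B cells, 13.5 to 19.03 CPM for CD8 T cells, 3.36 to 5.93 CPM for NK cells, of which the defining Ncr1 was at or under 0.0844 CPM, and 6.15 to 14.9 CPM for erythroid cells.

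Tfam, the targeted gene, was lower in KO and was the only member called. In the order of the replicate numbers, the 3 control libraries held 25.9, 30.6 and 42.4 CPM of Tfam RNA and the 3 KO libraries 15.6, 14.4 and 16.5 CPM. The groups did not overlap, control replicate 3 was the highest library, and the KO libraries lay closer together (15.5 ± 1.06 CPM, SD, n = 3) than the controls (33.0 ± 8.49 CPM, SD, n = 3). The log2 fold change was -1.09 ± 0.17 (SE, edgeR's quasi-likelihood test, adjusted p = 0.020), with a 95% interval of -1.48 to -0.70, and same-numbered libraries differed by -0.74, -1.09 and -1.36. Counts cover the gene as a whole, so RNA from parts that Cre leaves in place still adds to them, and the KO level is not a level of intact mRNA. In bulk RNA, fewer cells that express a gene and less RNA per cell cannot be told apart.

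The Tfam call depended on which libraries entered the fit. Leaving out control replicate 1 or 3 kept it. The adjusted p rose to 0.0551 when control replicate 2 was left out, to 0.109, 0.0866 and 0.0845 when KO replicates 1, 2 and 3 were, and to 0.1225 without both libraries numbered 2. Log2 fold changes with 1 library left out ran from -1.22 to -0.87. The fits with libraries left out had no replicate block. With the replicate number as a block and all 6 libraries, the adjusted p was 0.000125 in edgeR and 7.99e-11 in DESeq2.

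**Figure D1:**
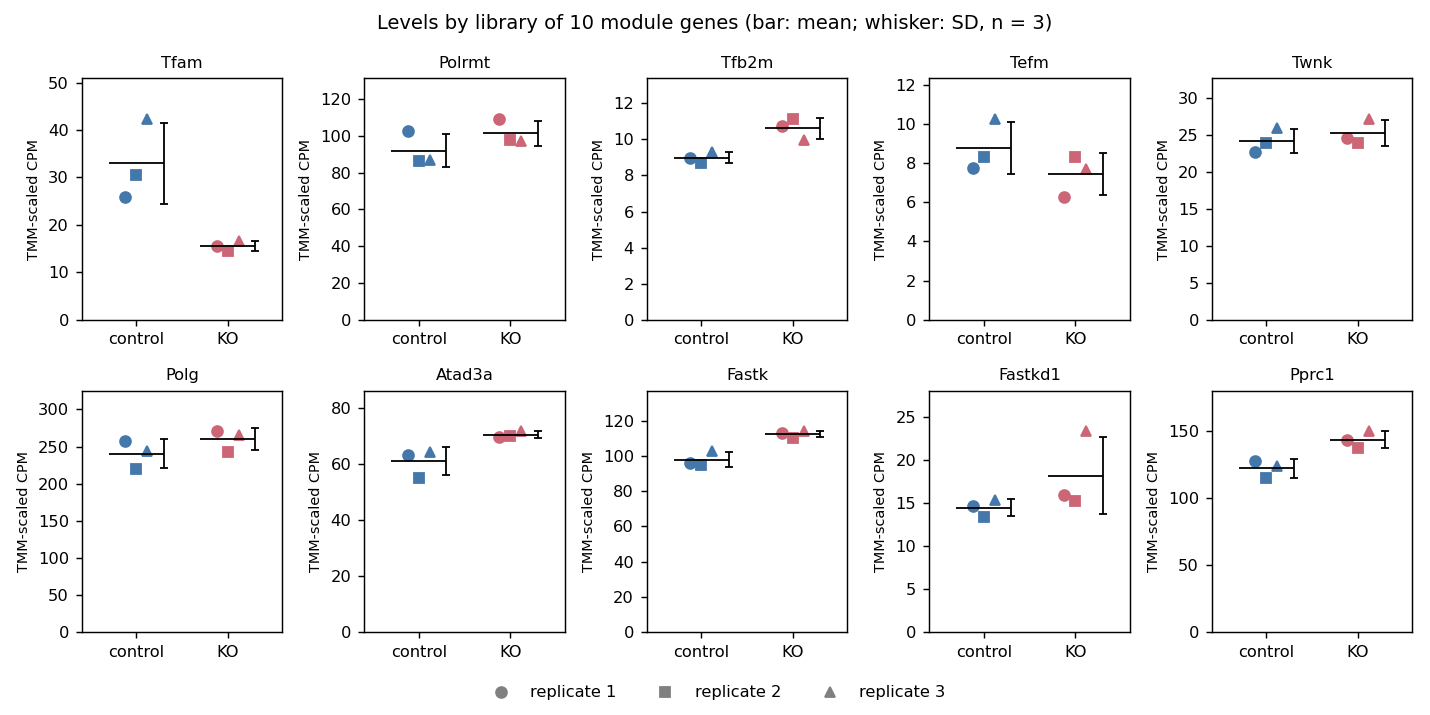
Level of 10 of the genes in each library (TMM-scaled CPM, vertical axis starting at 0), control in blue and KO in red, with the replicate shown by the symbol, a bar at the mean and a whisker of 1 SD (n = 3). Tfam falls from 25.9 to 42.4 CPM in control to 14.4 to 16.5 CPM in KO, and the groups of Tfb2m, Atad3a, Fastk and Pprc1 lie apart by a small margin with KO higher.

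Of the other 39 members, edgeR called 0 lower and 0 higher, against 1.39% of all 11990 tested genes called lower and 0.1% called higher. These shares are also the background for the counts of called genes by role below, where 0 called is close to them. At an unadjusted p under 0.05 there were 0 lower and 4 higher members (Tfb2m, Atad3a, Fastk and Pprc1), where 7.22% and 5.4% of all tested genes passed in the same directions. DESeq2 and limma-voom also called Tfam alone among the members. The median log2 fold change of the 39 was 0.06, against -0.0045 for all tested genes, and 30 of the 39 were fitted above 0, compared with 48.8% of all tested genes. Fitted values ran from -0.24 (Tefm) to 0.33 (Fastkd1). All 39 intervals lay within 1 of 0 on the log2 scale, which leaves out a 2-fold change in either direction, and 34 of the 39 lay within 0.5. The other 5 were those of Tefm, Mterf1a, Mgme1, Fastkd1 and Ppargc1b.

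**Figure D2:**
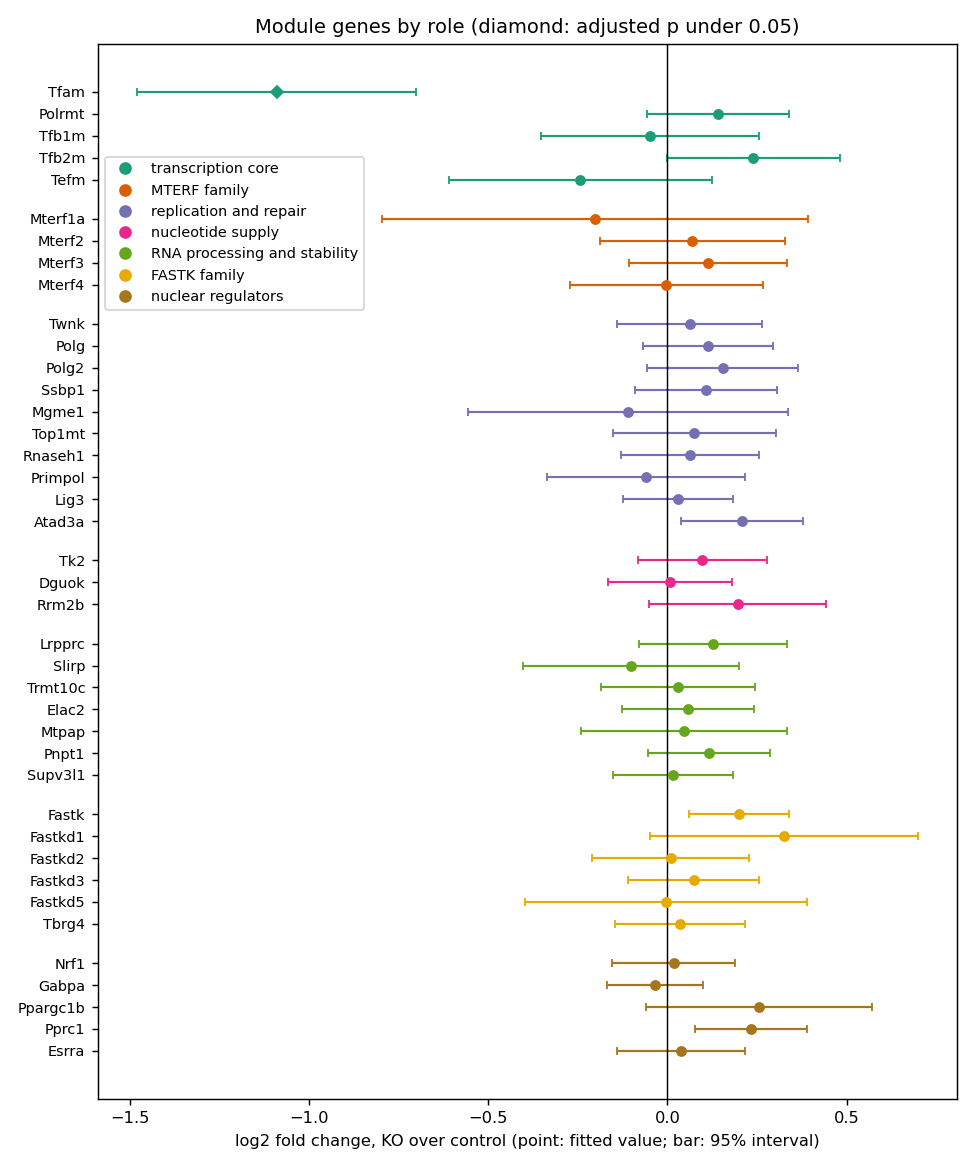
Log2 fold change of KO over control (horizontal axis) for each of the 40 genes, grouped and coloured by role, with the 95% interval of edgeR's fit, and a diamond for an adjusted p under 0.05. Tfam stands at -1.09 and every other gene lies between -0.24 and 0.33.

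Of the regulators that act upstream of the machinery, Nrf1, Gabpa and Esrra were measured at levels close to those of the controls. Nrf1, a transcription factor that binds a GC-rich palindrome, stood at 77.7, 70.2 and 70.5 CPM in control and 78.2, 74.4 and 68.4 CPM in KO, which overlap almost fully (0.02 ± 0.08, adjusted p = 0.952). Gabpa, the DNA-binding ETS subunit of GABP, stood at 62.0, 61.9 and 62.5 CPM in control and 61.0, 59.2 and 61.9 CPM in KO. Its log2 fold change was -0.03 ± 0.06 with an interval of -0.17 to 0.10, the narrowest of the 40. Esrra, an orphan nuclear receptor that works with PGC-1 coactivators, had 47.2 ± 1.43 and 48.5 ± 3.98 CPM (SD, n = 3 each).

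Both PGC-1 family members on the list were fitted higher. Pprc1, a coactivator induced by growth signals, stood at 128, 115 and 124 CPM in control and 143, 137 and 150 CPM in KO. The KO libraries were all above the control libraries, by 0.23 ± 0.07 on the log2 scale (1.18-fold, adjusted p = 0.192), and within same-numbered pairs by 0.16, 0.26 and 0.28. With the replicate block edgeR called Pprc1 higher (adjusted p = 0.0302), the 1 member called higher against the 1.97% of all tested genes, and DESeq2 did not (0.0503). The macrophage and monocyte markers, with 4 of 10 called higher in that fit, were fitted on the same side. Their sums were 372, 820 and 430 CPM in control and 483, 1183 and 424 CPM in KO. By number, these sums were higher in KO in pairs 1 and 2 and slightly lower in pair 3. A link between them and Pprc1 was not tested. Ppargc1b, which encodes PGC-1 beta, stood at 23.3, 20.9 and 17.4 CPM in control and 26.7, 26.3 and 20.5 CPM in KO. The groups overlapped because KO replicate 3 was low, though each KO library exceeded the control of its number (0.26 ± 0.14, adjusted p = 0.490, or 0.0772 with the block). The related Ppargc1a, the coactivator best known from muscle and liver, had 10 counts over the 6 libraries together and was not tested.

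The promoters of several members hold letters that these factors recognise. Shown are 4 with a match, those of the deleted gene, of the polymerase of mtDNA transcription, and of Polg and Twnk of the replisome. RefSeq promoters of the GRCm38.p6 assembly were found for 33 of the 40 genes, each from 250 bases before to 50 bases after a transcript start. The 140 bases before the start are printed 5′ to 3′ on the gene's strand, with matches in capitals. Another RefSeq promoter of Twnk, with the 250 bases before its start at chr19:45005413-45005662, held no match and is not shown. Those of Polg2 and Ssbp1, which also act in mtDNA replication, held no match either and are not shown. The stretch of Tfam lies at chr10:71238045-71238184 on the minus strand, Polrmt at chr10:79746582-79746721 on the minus strand, Polg at chr7:79466274-79466413 on the minus strand and Twnk at chr19:45006418-45006557 on the plus strand.
Tfam: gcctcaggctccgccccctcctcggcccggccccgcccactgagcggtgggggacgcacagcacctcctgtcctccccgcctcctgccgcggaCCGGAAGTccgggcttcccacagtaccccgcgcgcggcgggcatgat
Polrmt: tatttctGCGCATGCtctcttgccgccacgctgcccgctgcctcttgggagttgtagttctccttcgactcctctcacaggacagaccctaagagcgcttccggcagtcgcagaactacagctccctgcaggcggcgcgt
Polg: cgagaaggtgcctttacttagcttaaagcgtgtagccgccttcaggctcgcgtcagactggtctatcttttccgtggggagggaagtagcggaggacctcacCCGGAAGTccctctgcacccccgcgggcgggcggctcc
Twnk: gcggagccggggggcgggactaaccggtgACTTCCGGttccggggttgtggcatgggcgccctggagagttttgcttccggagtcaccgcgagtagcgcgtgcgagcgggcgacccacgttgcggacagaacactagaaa

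The ETS motif bound by GABP, searched as CCGGAAGT on both strands, was found in the 300-base promoter of 7 of the 33 members (21.2%), namely Fastkd5, Mterf1a, Polg, Tefm, Tfam, Trmt10c and Twnk. It was found in 4.31% of the 27025 genes with a promoter and in 9.6% of those that were tested here. An NRF1 core, searched as GCATGCGC on both strands, was found for 3 of the 33 (9.09%), Esrra, Polrmt and Tfb2m, against 3.05% of all and 6.24% of tested genes. An E-box, CACGTG, was found for Fastkd1 and Lig3 (6.06%, against 8.09% and 11.7%). Of the 4 sequences shown, those of Tfam, Polg and Twnk hold an exact match to the ETS letters and none to the NRF1 core, and that of Polrmt the reverse. The 3 members with the NRF1 core had log2 fold changes between 0.04 and 0.24, and the 7 with the ETS motif between -1.09 (Tfam) and 0.11 (Polg), none but Tfam called. A match is a stretch of letters and does not show binding. Only exact matches were searched, so a missing match does not show that a site is absent.

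None of the 4 other genes of the basal transcription apparatus was called. Polrmt, the RNA polymerase of mitochondria, stood at 102, 86.5 and 86.9 CPM in control and 109, 97.8 and 97.3 CPM in KO. The KO library was higher in each same-numbered pair, while the groups overlapped (0.14 ± 0.09, adjusted p = 0.541, or 0.147 with the block). Tfb2m, which melts the promoter together with the polymerase, stood at 8.99, 8.68 and 9.28 CPM in control and 10.7, 11.2 and 9.97 CPM in KO. All 3 KO libraries were above all 3 controls, by 0.24 ± 0.11 on the log2 scale, and the difference did not pass (unadjusted p = 0.0497, adjusted p = 0.394, or 0.225 with the block).

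Tefm and Tfb1m were fitted below 0. Tefm, the elongation factor of the polymerase, stood at 7.72, 8.32 and 10.3 CPM in control and 6.25, 8.32 and 7.71 CPM in KO, and its -0.24 ± 0.16 was the lowest value after Tfam (adjusted p = 0.579). The interval of Tefm, -0.61 to 0.12, is too wide to tell a moderate fall from none. Tfb1m, a methyltransferase that modifies the small mitochondrial ribosomal RNA, had 8.23 ± 0.53 CPM in control and 7.97 ± 1.03 CPM in KO (SD, n = 3 each). The 5 genes together summed to 142 to 158 CPM in control and 139 to 149 CPM in KO.

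The MTERF family, proteins that bind mtDNA or mitochondrial ribosomal RNA, had 0 of 4 members called. Mterf3, known as a repressor of mtDNA transcription, had a control level of 34.2 ± 1.53 CPM and a KO level of 37.1 ± 4.47 CPM (SD, n = 3 each), a log2 fold change of 0.11 ± 0.10. Mterf4, which acts in ribosome assembly, had 13.1 ± 1.77 and 13.1 ± 0.50 CPM and a log2 fold change of -0.003 whose sign changed with the scaling. Mterf2 was also close to 0 (0.07 ± 0.11). Mterf1a, the termination factor that binds downstream of the ribosomal RNA genes, was the member with the fewest counts, at 3.46, 4.09 and 5.37 CPM in control and 3.12, 3.02 and 5.14 CPM in KO. Its interval of -0.80 to 0.39 was the widest of the 40, and it shares sequence with its near copy Mterf1b, so its counts are uncertain.

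The replication and repair genes had 0 of 10 called and 8 of 10 fitted above 0, compared with 48.8% of all tested genes fitted above 0. Polg, the catalytic subunit of the mtDNA polymerase, stood at 258, 219 and 244 CPM in control and 271, 243 and 266 CPM in KO, with the 2 groups overlapping. Its processivity subunit Polg2 stood at 22.8 ± 1.85 and 25.3 ± 1.68 CPM, and the log2 fold changes of the subunits were similar, 0.11 ± 0.08 and 0.15 ± 0.09. Twnk, the replicative helicase, had 22.7, 24.0 and 25.9 CPM in control and 24.6, 24.0 and 27.2 CPM in KO (0.06 ± 0.09), and Ssbp1, the single-stranded DNA binding protein of mitochondria, had a similar value (0.11 ± 0.09).

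Atad3a, an inner membrane ATPase linked to nucleoids, was the replication and repair gene whose groups lay apart. It stood at 63.4, 55.2 and 64.4 CPM in control and 69.6, 70.1 and 71.9 CPM in KO, a log2 fold change of 0.21 ± 0.07 (1.16-fold, adjusted p = 0.294, or 0.0674 with the block). The low control replicate 2 sets part of that size, and without it the log2 fold change was 0.14. The enzymes that act on primers, ends and topology were fitted close to 0, with a wide interval for Mgme1 (-0.56 to 0.34). Rnaseh1, which removes RNA primers, had 0.06 ± 0.08, the exonuclease Mgme1 -0.11 ± 0.20 at 3.41 to 5.27 CPM over the 6 libraries, Top1mt, the mitochondrial topoisomerase, 0.08 ± 0.10, and Lig3, the ligase that seals mtDNA, 0.03 ± 0.07. Primpol, a primase that restarts stalled forks, had 25.0, 28.9 and 27.1 CPM in control and 21.4, 27.1 and 29.2 CPM in KO (-0.06 ± 0.12), KO replicate 1 being the lowest library and KO replicate 3 the highest.

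Nucleotide supply to mtDNA in resting cells depends on salvage kinases inside mitochondria and on a ribonucleotide reductase subunit that does not need S phase. Tk2 and Dguok, the mitochondrial pyrimidine and purine kinases, stood at 37.2 ± 2.93 and 45.9 ± 2.37 CPM in control and at 39.9 ± 1.13 and 46.1 ± 2.81 CPM in KO. Rrm2b, the reductase subunit known from non-dividing cells, had 11.5, 11.3 and 13.1 CPM in control and 12.8, 13.7 and 14.8 CPM in KO. Each KO library of Rrm2b exceeded the control of its number, while KO replicate 1 lay below control replicate 3 (0.20 ± 0.11, adjusted p = 0.496, or 0.247 with the block).

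The S phase counterparts of these enzymes are not members and were picked after their values were seen. Tk1, the thymidine kinase of dividing cells, stood at 7.07, 11.2 and 5.81 CPM in control and 7.34, 7.98 and 5.88 CPM in KO, higher in KO in pairs 1 and 3 and lower in the second (-0.18 on the log2 scale, adjusted p = 0.811, or 0.567 with the block). Rrm2, the reductase subunit of dividing cells, stood at 13.6, 21.6 and 9.35 CPM in control and 9.71, 9.64 and 5.40 CPM in KO (-0.84 ± 0.32, adjusted p = 0.323). With the replicate block, where 4.39% of all tested genes were called lower, edgeR (0.00333) and DESeq2 (0.00113) both called Rrm2. Rrm1, the shared large subunit, had -0.27 ± 0.10 (adjusted p = 0.294), and with the block edgeR called it (0.0364) and DESeq2 did not (0.167). The 11 genes of the cycling cell list, which holds both, were all detected, all fitted below 0 with a median of -0.27 and 0 called, and summed to 735, 882 and 581 CPM in control and 644, 658 and 496 CPM in KO, lower in each same-numbered pair. With the block edgeR called 6 of the 11 lower (Mki67, Top2a, Cdk1, Mcm3, Rrm1 and Rrm2), and DESeq2 with the block gave adjusted p-values of 0.0174 for Mki67, 6.56e-07 for Top2a, 0.0399 for Cdk1 and 0.152 for Mcm3. The part of cycling cells in these values was not tested.

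Factors that cut, tail, stabilise or degrade mitochondrial RNA had 0 of 7 called. Lrpprc, which holds mitochondrial mRNAs in a stable, polyadenylated pool, stood at 99.3, 96.1 and 113 CPM in control and 108, 105 and 124 CPM in KO. Replicate 3 was the highest library of Lrpprc in both groups. Each KO library lay above the control of its number by 0.12 to 0.14 (0.13 ± 0.09, adjusted p = 0.608, or 0.187 with the block). Its partner Slirp had no such order, with 13.1, 15.2 and 16.8 CPM in control and 13.6, 16.1 and 12.4 CPM in KO (-0.10 ± 0.13). The enzymes that free tRNAs from the long transcript had values near 0. Trmt10c, a subunit of the enzyme that cuts the 5′ end, had 0.03 ± 0.09 and Elac2, which cuts the 3′ end, 0.06 ± 0.08. Mtpap, the mitochondrial poly(A) polymerase, stood at 48.7, 53.0 and 63.9 CPM in control and 51.0, 54.1 and 66.0 CPM in KO, so its spread between numbers was far larger than the difference between genotypes within a number (0.05 ± 0.13). Pnpt1 and Supv3l1, the exonuclease and helicase of the mitochondrial degradosome, had 0.12 ± 0.07 and 0.02 ± 0.07.

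The FASTK family, RNA-binding proteins that act on particular mitochondrial transcripts, had 0 of 6 called. Fastk, the founding member, which is known for its role in the maturation of the ND6 transcript, stood at 96.1, 94.6 and 103 CPM in control and 113, 110 and 114 CPM in KO. The groups did not overlap, and the log2 fold change of 0.20 ± 0.06 (1.15-fold, unadjusted p = 0.0106) did not pass after adjustment (0.221, or 0.0530 with the block). Fastkd1 had the highest fitted value of the 40, 0.33 ± 0.16, from 14.6, 13.4 and 15.4 CPM in control and 16.0, 15.2 and 23.3 CPM in KO. KO replicate 3 alone carried most of it, and without that library the value was 0.11. The other four members, Fastkd2, Fastkd3, Fastkd5 and Tbrg4, all lay between -0.003 and 0.07.

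Many members were highest in replicate 3 of their group. Control replicate 3 was the highest control library for 25 of the 39 members other than Tfam (64.1%, against 37.8% of all tested genes), and KO replicate 3 the highest KO library for 24 of the 39 (61.5%, against 38.3%). The roles differed in this. Replicate 3 was the highest library for 6 of 7 RNA processing genes and 5 of 6 FASTK genes in each group, but for 1 of 5 nuclear regulators in control and 2 of 5 in KO, where replicate 1 was the highest for 3 of 5 in each group. For Tfam, too, replicate 3 was the highest library of each group.

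**Figure D3:**
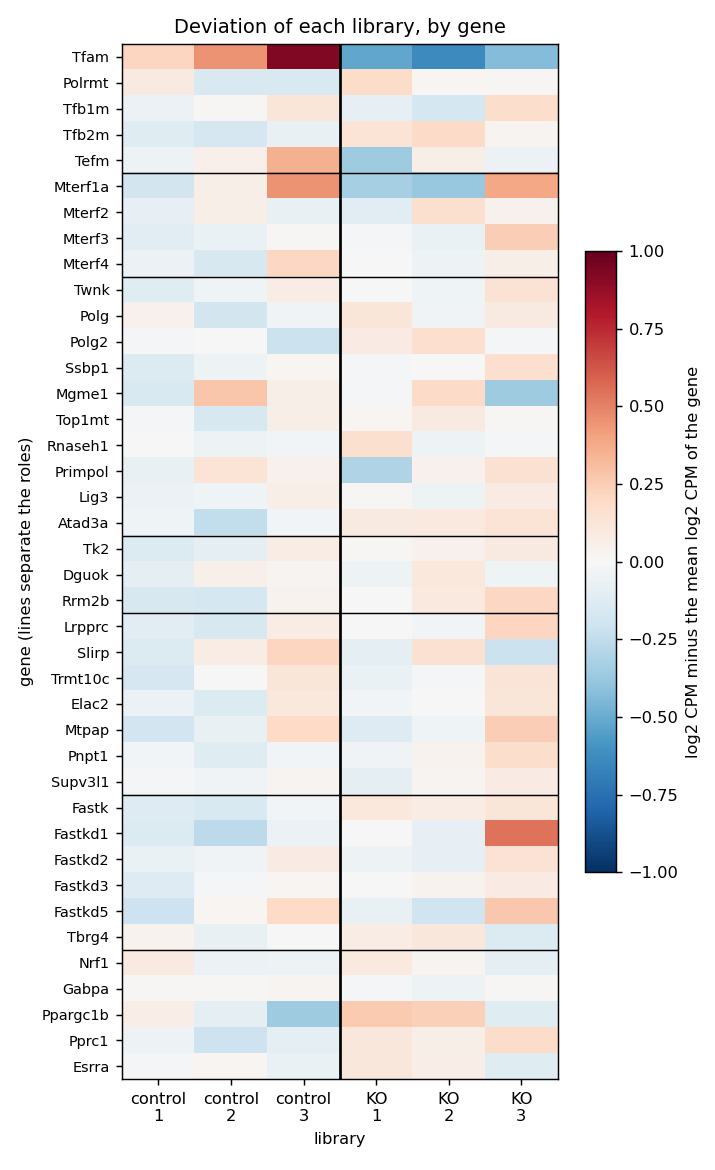
Deviation of each library (columns) from the mean log2 CPM of each gene (rows, in the order of the roles, separated by lines), red above and blue below the mean. Tfam changes sign between control and KO, while for many other genes replicate 3 is redder than its neighbours in both groups.

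Compared by number, KO exceeded control in all 3 pairs for 18 of the 40 members, against 21.7% of all tested genes, and lay below it in all 3 for Tfam, Mterf1a and Gabpa, against 23.7%. Some of these differences were minute, such as 0.0001 on the log2 scale for Twnk in the second pair. The median log2 ratio over the members was 0.08, 0.07 and 0.06 in pairs 1 to 3. By group, 4 members had KO libraries all above and 1 (Tfam) all below the controls, where 8.63% and 10.4% of all tested genes did so, which for the 4 is close to the background.

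Summed over the 39 genes other than Tfam, the level was 1737, 1659 and 1782 CPM in control and 1838, 1808 and 1893 CPM in KO. The KO sums were all above the control sums, at a ratio of 1.07, where the macrophage and monocyte sums gave 1.29 with overlapping groups, and abundant genes such as Polg weigh most in them. By role, the sums of the FASTK family (245 to 262 CPM in control, 274 to 275 CPM in KO) and of the replication and repair genes (471 to 510 CPM and 513 to 546 CPM) did not overlap between the groups, and neither did those of the nuclear regulators (316 to 338 CPM and 345 to 361 CPM). The sums of the MTERF family, the nucleotide supply genes and the RNA processing genes overlapped. The sums of the further pathway lists described below overlapped as well. They were 1247 to 1372 CPM in control and 1281 to 1353 CPM in KO for mitochondrial RNA modification and decay. For the nucleoid, replication and depletion genes they were 2912 to 3198 and 2901 to 3059 CPM, and for the further regulators 1650 to 1832 and 1722 to 1827 CPM. How often sums over sets drawn from all tested genes lie apart was not computed, so these sums have no such share beside them.

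**Figure D4:**
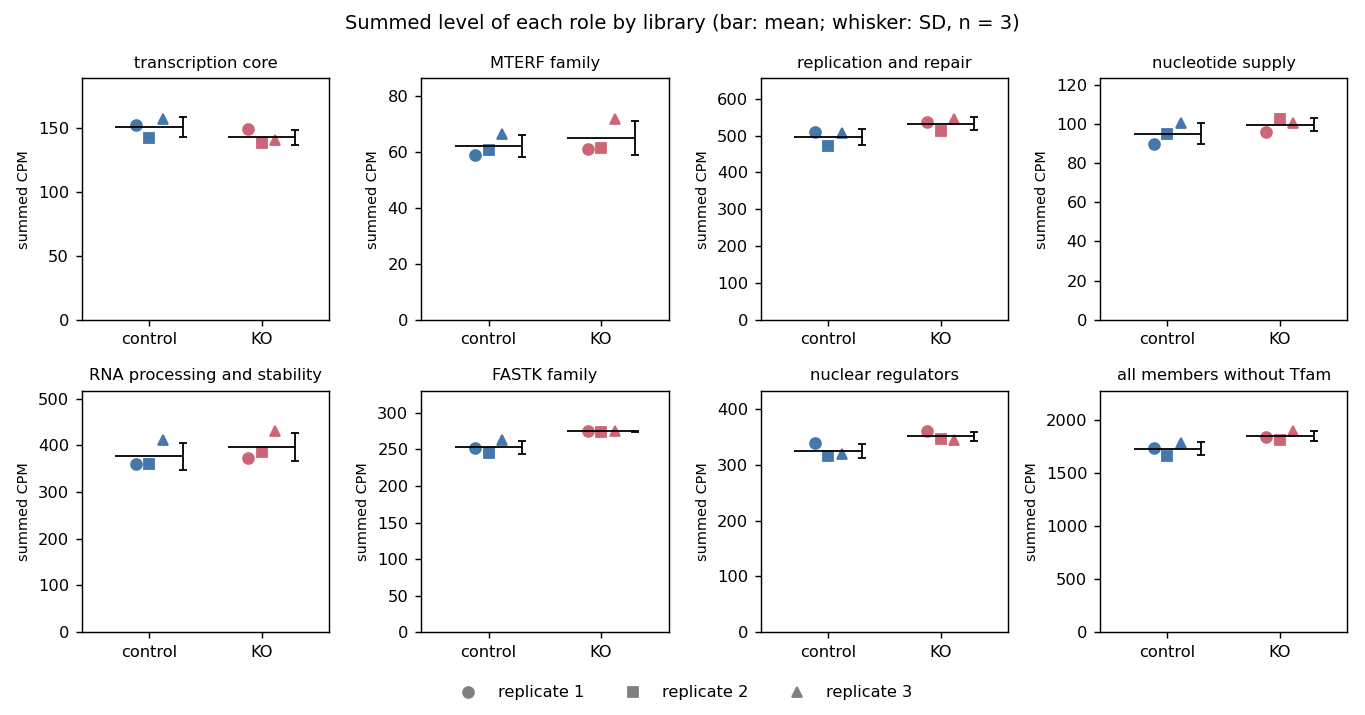
Summed level of the genes of each role in each library (CPM, vertical axis starting at 0), control in blue and KO in red, with a bar at the mean and a whisker of 1 SD (n = 3). The sum of all members without Tfam is 1659 to 1782 CPM in control and 1808 to 1893 CPM in KO.

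The RNAs that this machinery makes were not measured. All 13 mtDNA-encoded protein genes, from mt-Nd1 to mt-Cytb, are listed at 0 in all 6 libraries, although their transcripts are abundant in nearly every cell type. No level of mitochondrial transcription can be read from these counts.

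Further genes of the pathway, from 3 lists, had 0 called members as well. One of the listed genes, Trmt61b, had no row under that name, and 5 had too few counts to be tested, Abat, Ppargc1a, Ppara, Esrrb and Esrrg. Of 33 tested genes that modify or degrade mitochondrial RNA, 0 were called and the median was 0.02, with the helicase Dhx30 the most abundant at 189 to 231 CPM (0.12 ± 0.08). Of 33 tested genes of the nucleoid, of mtDNA replication and of mtDNA depletion syndromes, 0 were called and the median was -0.03, with the dNTP hydrolase Samhd1 the most abundant (-0.08 ± 0.09). With the replicate block edgeR called 2 of these 33 lower, Rrm1 and Rrm2. Of 18 tested regulators, 0 were called and the median was 0.06, with Hcfc1, a coregulator of transcription, the most abundant (0.10 ± 0.09). With the block the members called lower were again Tfam alone, against the 4.39% of all genes. At an unadjusted p under 0.05 in edgeR, 1 of 33, 5 of 33 and 0 of 18 genes of the 3 lists were lower and 0 were higher, beside the 7.22% and 5.4% of all tested genes.

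**Figure D5:**
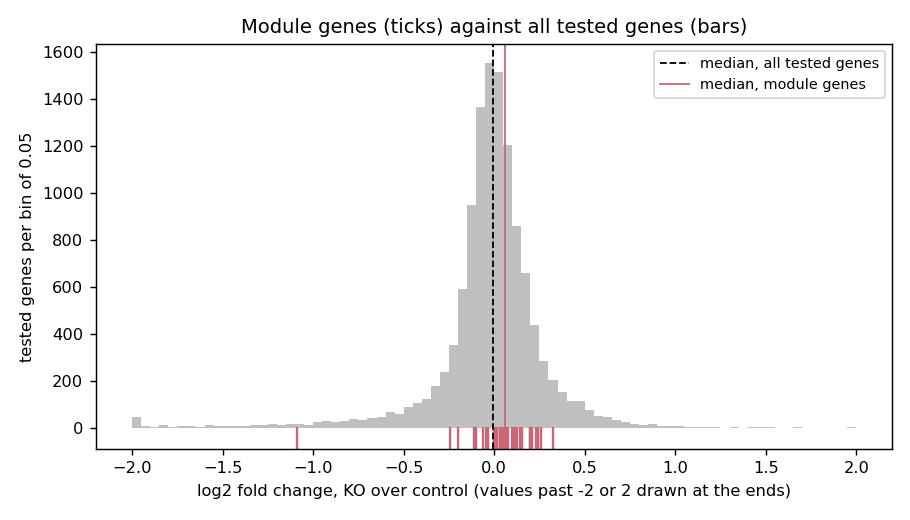
Number of tested genes per bin of 0.05 (bars) by log2 fold change of KO over control, with a tick for each of the 40 members and lines at the medians of all tested genes (dashed) and of the members (red). The members sit in the body of the distribution, with Tfam at -1.09 on its own.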

How the data were processed

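The authors deposited 1 table of raw read counts per Ensembl gene, made with HTSeq per the labels, with 1 column for each of the 6 RNA libraries. Per the submitters' processing notes, bedtools, SAMtools, Bowtie2, Cufflinks, HISAT2 and DESeq2 were also used, and mm9 and mm10 are named as builds, without roles. No source used here gives the annotation or strand setting, and 19 of the 40 members overlap another gene's span in RefSeq, among them Polg (Fanci), Primpol (Cenpu), Twnk (Mrpl43), Gabpa (Atp5j) and Fastkd5, which lies within Ubox5, so reads of such pairs may not be told apart. The 4 ATAC libraries were not analysed here. Symbols were found for 22522 of 22553 IDs.

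Counts were tested with edgeR 4.0.16 (R 4.3.3) after filterByExpr (minimum count 10, minimum total 15; 11990 genes), with TMM factors, quasi-likelihood F tests and Benjamini-Hochberg adjustment over all tested genes. Calls are at an adjusted p under 0.05. SEs come from the F statistic and 95% intervals from the SE. Alternatives were median-ratio size factors, no filter, DESeq2 1.42.0, limma-voom 3.58.1, a replicate block and libraries left out. Same-numbered libraries deviated together from their group means (correlations of 0.3, 0.584 and 0.537, against -0.548 to 0.0213 for other pairs), and the numbers are read as pairs. Deviations from a group mean cancel out within the group, so the low values of other pairs follow in part from the high ones. The reported tests have no block, nor do the fits with libraries left out. Values with the block stand beside the reported tests for each member whose call it changed and for some others. Every 2 libraries of a group differed beyond sampling noise (chi-square of 8.75 to 27.4 per degree of freedom). Nothing in the labels ties pools to separate days or litters, so part of the spread behind the p-values may be technical. Members and lists were chosen with earlier results of these data known. The text names all 40 members, and of the further lists every called gene or else the most abundant one. Other genes were picked after their values were seen.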

Additional observations from a re-analysis of the deposited data

How the results depend on the processing

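Tfam was lower in every fit that was run, and its log2 fold change lay between -1.22 and -0.87 with 1 library left out and at -1.09 without both libraries numbered 2, where its call was lost, so that 0 members were called lower there and 0 to 1 with single libraries left out. With the replicate block 1 member, Pprc1, was called higher. The median of the members was 0.0427 to 0.10 with 1 library left out. EdgeR with all libraries called 167 genes of the whole table lower and 12 higher. The counts, lower then higher, were 262 and 76 by DESeq2, 136 and 3 by limma-voom, 526 and 236 by edgeR with the replicate block, 298 and 136 by DESeq2 with the replicate block, 54 and 0 without both libraries numbered 2, and 26 to 166 and 0 to 10 with 1 library left out, and the cause was not tested.

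Members near 0 changed sign, none of them called. Mterf4 was at 0.0049 and Fastkd5 at 0.0048 with median-ratio size factors, at 0.0015 and 0.0017 with no filter, at 0.0042 and 0.0044 with DESeq2, and at 0.0128 and 0.0049 with DESeq2 and the replicate block, and Mterf4 at 0.0043 in edgeR with the block. Without both libraries numbered 2, Tfb1m was at 0.0138, Top1mt at -0.0046, Dguok at -0.0188, Supv3l1 at -0.0084, Fastkd5 at 0.0947, Tbrg4 at -0.0445 and Nrf1 at -0.015. With 1 library left out the ranges were -0.15 to 0.0339 for Tfb1m, -0.0774 to 0.11 for Mterf4, -0.23 to 0.0201 for Mgme1, -0.15 to 0.07 for Primpol, -0.0042 to 0.0705 for Lig3, -0.0346 to 0.0409 for Dguok, -0.0278 to 0.10 for Trmt10c, -0.0713 to 0.17 for Mtpap, -0.0218 to 0.0701 for Supv3l1, -0.0624 to 0.0606 for Fastkd2, -0.15 to 0.10 for Fastkd5, -0.0041 to 0.11 for Tbrg4, -0.0215 to 0.0806 for Nrf1 and -0.0011 to 0.10 for Esrra. Mterf1a, Mgme1 and Fastkd5 had the fewest counts, and with 3 libraries a group, changes well under 2-fold can be missed.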
